A study of Mus musculus with 12 samples.

Results

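Pyroptosis and necroptosis are lytic forms of cell death, and the genes described here encode the proteins that trigger and carry them out: the caspases Casp1, Casp4 and Casp8, the pore protein Gsdmd, the kinases Ripk1 and Ripk3, the necroptosis effector Mlkl, and the sensors Zbp1 and Nlrp3. The members were listed by gene symbol for their known roles, with earlier results of these data known, and make up 9 of the 54119 genes summed. All 9 passed the filter on low counts that left 19150 genes to test. They were followed in cerebral vessels isolated from the forebrain of wild type C57BL6 mice aged 2 to 3 months, after an intraperitoneal injection of PBS or of lipopolysaccharide (LPS, the outer membrane glycolipid of Gram-negative bacteria) at 10 mg/kg. LPS vessels were taken after 15 min, after 30 min or after 4 h, and all 4 groups had the same genotype. Their labels differ only in the injection and the time after LPS. The time after PBS and the day or batch of preparation are not stated. Each group had 3 libraries, and each library pooled the vessels of 1 male and 1 female mouse, so the spread between libraries is a spread between pools of 2 mice. The whole vessel fraction was sequenced, in which fewer cells of a type and less RNA per cell cannot be told apart.

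In pyroptosis, an inflammasome built on a sensor such as NLRP3 activates caspase-1, which matures the cytokines IL-1β and IL-18 and cuts gasdermin D. The freed part of gasdermin D forms pores in the plasma membrane. Caspase-11, the product of mouse Casp4, binds LPS in the cytosol and cuts gasdermin D directly. In necroptosis, RIPK1 or ZBP1 engages RIPK3, which phosphorylates MLKL so that it permeabilizes the membrane, while caspase-8 cuts the RIP kinases and holds this route in check. Brain endothelium is known to respond to LPS in the blood, and gasdermin D in endothelial cells has been linked to opening of the blood-brain barrier in endotoxemia.

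The genes lie on 8 chromosomes of GRCm38, and only the inflammatory caspases are neighbours. Casp1 spans chr9:5298517-5307265 and Casp4 spans chr9:5308828-5336783, both on the plus strand and 1562 bases apart, followed on the same strand by Casp12. The others are Casp8 at chr1:58795374-58847503, Gsdmd at chr15:75862327-75867408, Ripk1 at chr13:34002363-34037147 and Nlrp3 at chr11:59541568-59566956 on the plus strand, and Ripk3 at chr14:55784995-55788865, Mlkl at chr8:111311797-111338177 and Zbp1 at chr2:173206612-173218923 on the minus strand. The first bases of Ripk1, up to position 34002794, overlap the protein-coding gene Serpinb6a on the opposite strand. The library kit does not mark strand, so reads from that stretch cannot be assigned by strand.

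Casp4 was one of the 2 members that passed the test at 30 min, and the only one of those with a motif match in its promoter. RefSeq promoter windows of GRCm38.p6, running from 250 bases before to 50 bases after a start, were found for 7 of the 9 genes, with no entry used for Gsdmd or Zbp1. Each was searched on both strands for an NF-kB pattern (GGG, any 3 bases, TTCC), an interferon-stimulated response element pattern (GAAA, any 2 bases, GAAA) and a gamma-activated sequence pattern (TTCNNNGAA), which occur in 5.56%, 3.44% and 8.30% of the 32851 windows of all genes. The stretch before Casp4 is printed because it holds 2 of its 3 NF-kB matches, shown in capitals. It covers chr9:5308724-5308827 on the plus strand, between Casp1 and the first annotated base of Casp4.

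Casp4: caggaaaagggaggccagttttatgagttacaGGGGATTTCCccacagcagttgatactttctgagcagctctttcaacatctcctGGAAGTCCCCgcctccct

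The matches begin 93 and 39 bases before the first RefSeq start, and the remaining one, GGAAATGCCC, begins 14 bases before it. Only 7 of the 32851 windows (0.0213%) held 3 or more NF-kB matches. Both windows of Casp4 were among them, but these overlap and hold the same 3 matches. Ripk1 had no match before its first start. Before its second start it had the gamma-activated letters TTCCCGGAA in 2 places, at 108 and 11 bases, and an interferon-stimulated match, GAAATCGAAA, across the start. No pattern matched in the windows of Casp1, Casp8, Ripk3, Mlkl or Nlrp3. Nlrp3 was the other member that passed at 30 min. A match describes letters only, and no binding was measured.

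Depth was 18.3 to 25.9 M estimated fragments per library. Levels are given in CPM, a gene's count per 1000000 fragments of the library, whose size was adjusted by trimmed-mean (TMM) factors that averaged 1.17 in PBS, 1.15 at 15 min, 1.04 at 30 min and 0.717 at 4 h. Without these factors the median log2 fold change of all genes shifted by -0.70 at 4 h against PBS, by -0.16 at 30 min and by -0.02 at 15 min. CPM levels and log2 fold changes below are relative to the TMM scale unless another setting is named. A gene was called when edgeR's test against a change of at most 1.5-fold (glmTreat) gave a Benjamini-Hochberg adjusted p under 0.05 over all genes tested. The vessel identity held in every group: summed over 10 genes each, endothelial markers lay at 8584 to 13120 CPM and mural markers at 5426 to 6186 CPM, far above any other cell type list.

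In PBS vessels the pore protein was the most abundant transcript of the set per length. In TPM, transcripts per 1000000 after correction for transcript length, summed over all annotated transcripts of a gene, Gsdmd was at 68.8, 76.8 and 69.2 in the 3 libraries, 71.6 ± 4.52 (SD, n = 3). Casp8 followed at 29.2 ± 1.01, Ripk1 at 13.9 ± 1.90 and Casp4 at 8.48 ± 1.74 TPM. These neighbours in the order did not overlap between libraries. Mlkl at 5.97 ± 0.412, Zbp1 at 4.92 ± 1.10, Ripk3 at 4.23 ± 0.481 and Casp1 at 4.14 ± 0.721 TPM overlapped each with the next. Nlrp3 stood below them all at 0.397 ± 0.125 TPM.

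At 4 h the order was another. Casp4, at 322, 319 and 298 TPM (313 ± 12.8), had the highest summed level, and Zbp1, at 257, 253 and 248 TPM (253 ± 4.26), came next. Gsdmd followed at 120 ± 4.64, Mlkl at 98.9 ± 2.10, Casp8 at 49.8 ± 2.98, Ripk1 at 30.8 ± 1.53 and Casp1 at 16.8 ± 0.817 TPM, with no overlap between neighbours down to Nlrp3 at 7.94 ± 0.234 TPM. Only Nlrp3 and Ripk3 (5.75 ± 1.94 TPM) overlapped. Gsdmd held 50.1% of the summed TPM of the 9 genes in PBS and 13.4% at 4 h, while Casp4 went from 5.95% to 34.9% and Zbp1 from 3.45% to 28.2%. The sum itself was 143 ± 3.00 TPM in PBS, 122 ± 2.98 at 15 min, 113 ± 5.23 at 30 min and 896 ± 21.6 at 4 h. TPM is set to a constant sum per library and carries no TMM factor. These levels after LPS are therefore lower against PBS than those in CPM, slightly at 15 min, more at 30 min and most at 4 h.

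The order depended on the transcripts summed. With protein-coding transcripts alone, an alternative chosen after seeing the data, Zbp1 led at 4 h at 235, 233 and 227 TPM (232 ± 4.24), above Casp4 at 210, 201 and 187 TPM (199 ± 11.3). Mlkl at 86.3 ± 2.17 TPM was then above Casp8 at 49.8 ± 2.98 and Gsdmd at 49.3 ± 2.09 TPM, which overlapped. In PBS, coding Gsdmd at 30.9 ± 1.88 TPM overlapped with Casp8 at 29.2 ± 1.01 TPM, and Casp4 at 5.08 ± 0.933 TPM overlapped with Mlkl. Coding Ripk3 was at 1.65, 3.25 and 2.56 TPM in PBS and 4.44, 4.98 and 4.82 TPM at 4 h, with no overlap.

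**Figure D1:**
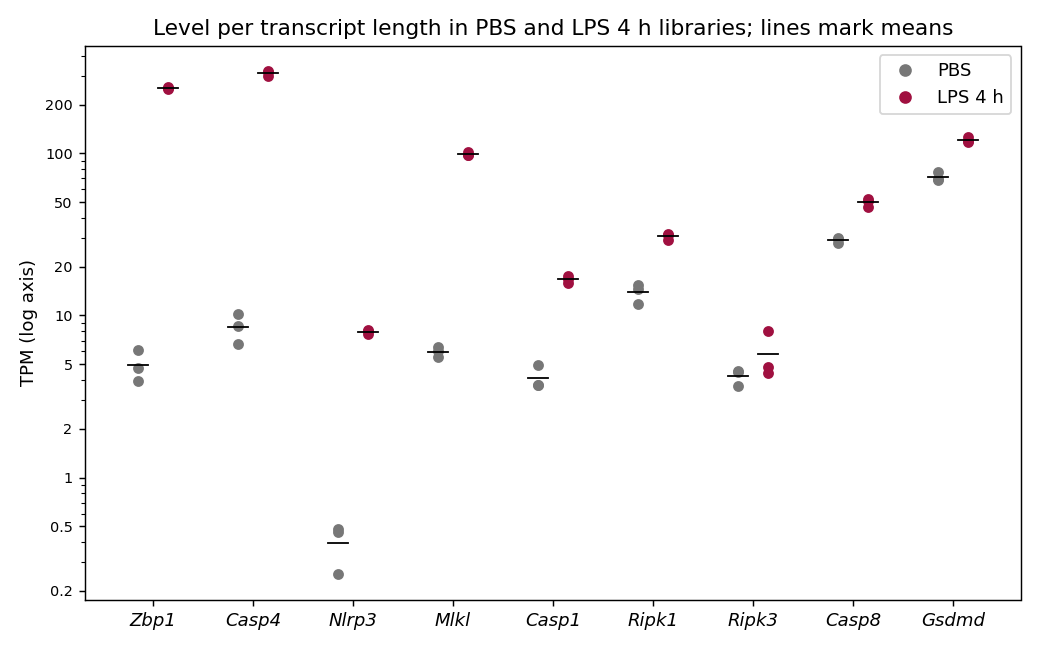
Level of each gene per transcript length (TPM, log axis) in the 3 PBS and 3 LPS 4 h libraries; points are libraries and lines are means over all annotated transcripts. Gsdmd, at 71.6 TPM, leads in PBS, and Casp4 (313) and Zbp1 (253) lead at 4 h, while the libraries of Ripk3 overlap between the groups on this scale.

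At 15 min no member was called. Against PBS 0 of 9 passed glmTreat, where 4.18% of all genes did (3.31% higher, 0.872% lower), and 0 of 9 had an unadjusted p under 0.05. DESeq2 and limma with the same fold threshold also called none, with 0 unadjusted p under 0.05 each. A quasi-likelihood test against no change at all (glmQLFTest) called 4 of 9, against 38.6% of all genes, and gave 6 an unadjusted p under 0.05. The members' median log2 fold change was -0.32, beside -0.00 over all genes tested. The libraries did not overlap with PBS for 4 of 9 genes, against 49.3% of all genes.

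The 4 genes that this test without a fold limit called were Zbp1, Gsdmd, Casp8 and Casp4. Zbp1, the sensor of Z-form nucleic acid, measured 3.03, 3.30 and 3.81 CPM in PBS and 6.13, 5.31 and 4.11 CPM at 15 min. Every 15 min library was above every PBS library, and the log2 fold change was 0.62 ± 0.129 (SE). Its adjusted p was 0.000464 without a fold limit and 1 against 1.5-fold (edgeR). Gsdmd measured 41.0, 41.9 and 41.7 CPM in PBS and 33.0, 31.4 and 32.5 CPM at 15 min, a log2 fold change of -0.36 ± 0.0473 with an adjusted p of 1.67e-06 without a fold limit. All 15 min values were below all PBS values. Casp8 likewise lay below, at 26.8, 27.7 and 24.9 CPM against 32.2, 34.0 and 32.5 CPM in PBS, with a log2 fold change of -0.32 ± 0.0594 and an adjusted p of 0.000167 without a fold limit. Casp4 overlapped between the groups (adjusted p of 0.0454 without a fold limit). Marker genes of several cell types moved at this time as well. Of 5 neuronal genes 2 rose, and their sum was 479 to 491 CPM against 307 to 319 CPM in PBS. Summed levels were below every PBS library for mural (5426 to 5468 against 6079 to 6186 CPM), astrocyte (554 to 598 against 716 to 738 CPM), fibroblast (199 to 209 against 265 to 285 CPM), oligodendrocyte (309 to 324 against 369 to 383 CPM), microglia (164 to 166 against 178 to 185 CPM) and lymphocyte genes (2.84 to 4.22 against 7.19 to 7.99 CPM). Those of perivascular macrophage genes (96.9 to 99.6 CPM) and neutrophil genes (7.05 to 8.71 CPM) were also below PBS. The monocyte sum (89.3 to 98.5 CPM) was above PBS, although 0 of 6 monocyte genes were called. Their log2 fold changes ran from -1.23 to 0.72, with a median of -0.45. The part of these cell types in the values above was not tested.

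At 30 min Nlrp3 and Casp4 rose and no member fell. The count of 2 of 9 stands beside 4.58% of all genes called, with 3.78% higher and 0.799% lower. Libraries did not overlap with PBS for 5 of 9 members, against 46.7% of all genes. The median log2 fold change was 0.06 over the members and -0.01 over all genes tested.

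Nlrp3, the sensor of the canonical inflammasome, is transcriptionally primed by Toll-like receptor signalling before it can assemble. It measured 0.599, 1.15 and 1.14 CPM in PBS, 0.644, 0.467 and 0.717 CPM at 15 min and 4.98, 5.98 and 4.64 CPM at 30 min. The 15 min libraries overlapped with PBS, and all 30 min libraries lay above both. The rise at 30 min was 5.36-fold against PBS, a log2 fold change of 2.42 ± 0.191 (edgeR adjusted p = 3.04e-08). Against 15 min it was 3.07 ± 0.209 on the log2 scale (edgeR adjusted p = 1.48e-09).

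Casp4, whose product senses LPS in the cytosol, measured 5.76, 3.88 and 5.23 CPM in PBS, 4.78, 3.57 and 2.60 CPM at 15 min and 9.35, 10.5 and 10.8 CPM at 30 min. The 30 min libraries did not overlap with either earlier group. The rise was 2.07-fold against PBS, a log2 fold change of 1.05 ± 0.133 (edgeR adjusted p = 0.00622), and 2.76-fold against 15 min, a log2 fold change of 1.47 ± 0.143 (edgeR adjusted p = 2.11e-05). The call against PBS was lost in DESeq2 (log2 fold change 1.03, adjusted p = 0.553), with library size alone (0.89, 0.0895), with limma, and without PBS replicate 2, the lowest PBS library (0.89, 0.0935). The call against 15 min stood in all 22 alternatives.

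Marker sums of some cell types were also higher at 30 min, and those of others were lower. The 6 monocyte genes, of which 1 rose, summed to 103 to 113 CPM against 72.3 to 84.6 CPM in PBS. The 6 perivascular macrophage genes, of which 1 rose, summed to 130 to 136 against 106 to 110 CPM. The median log2 fold change was 0.07 over the monocyte genes (-1.19 to 0.88) and 0.27 over the perivascular macrophage genes. Astrocyte genes, of which 2 of 6 rose, summed to 748 to 773 against 716 to 738 CPM, while 0 of 10 neutrophil genes were called by edgeR. Endothelial genes, of which 1 of 10 rose and 2 fell, summed to 13039 to 13120 against 11757 to 12070 CPM. Below every PBS library were the sums of microglia (167 to 176 CPM), oligodendrocyte (353 to 359 CPM) and lymphocyte genes (3.91 to 4.29 CPM). Those of mural, neuronal and fibroblast genes were also below PBS. Monocytes and macrophages are known to express Nlrp3 and Casp4, and the part of these cells in the rise of both genes was not tested.

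Between 15 and 30 min only these 2 members were called, against 4.65% of all genes (2.69% higher, 1.96% lower), and the libraries of 4 of 9 did not overlap, against 47.6% of all genes. Casp1, the other inflammatory caspase and the immediate neighbour of Casp4, measured 2.96, 3.00 and 4.08 CPM in PBS, 2.47, 2.29 and 2.75 CPM at 15 min and 2.21, 4.21 and 1.97 CPM at 30 min. Its log2 fold change at 30 min was -0.25 ± 0.214, and the second 30 min library was above every earlier one. Ripk1, the kinase scaffold of the death receptor complexes, measured 32.9, 34.2 and 30.3 CPM in PBS and 42.4, 40.2 and 43.3 CPM at 30 min. These groups did not overlap, and the log2 fold change of 0.37 ± 0.0535 stayed under the 1.5-fold limit (edgeR adjusted p = 1, and 7.31e-06 without a fold limit). Gsdmd at 32.8, 31.9 and 31.4 CPM and Casp8 at 28.3, 29.3 and 28.8 CPM remained below every PBS library, with log2 fold changes of -0.37 ± 0.0482 and -0.19 ± 0.0598. Neither passed against 1.5-fold, and their edgeR adjusted p without a fold limit was 1.44e-06 for Gsdmd and 0.0136 for Casp8, in a test that called 36.9% of all genes. Zbp1 was at 4.29, 4.77 and 3.66 CPM, with a log2 fold change of 0.33 ± 0.139, and overlapped with PBS. Ripk3 and Mlkl overlapped with PBS at both early times, with log2 fold changes between -0.12 and 0.18.

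**Figure D2:**
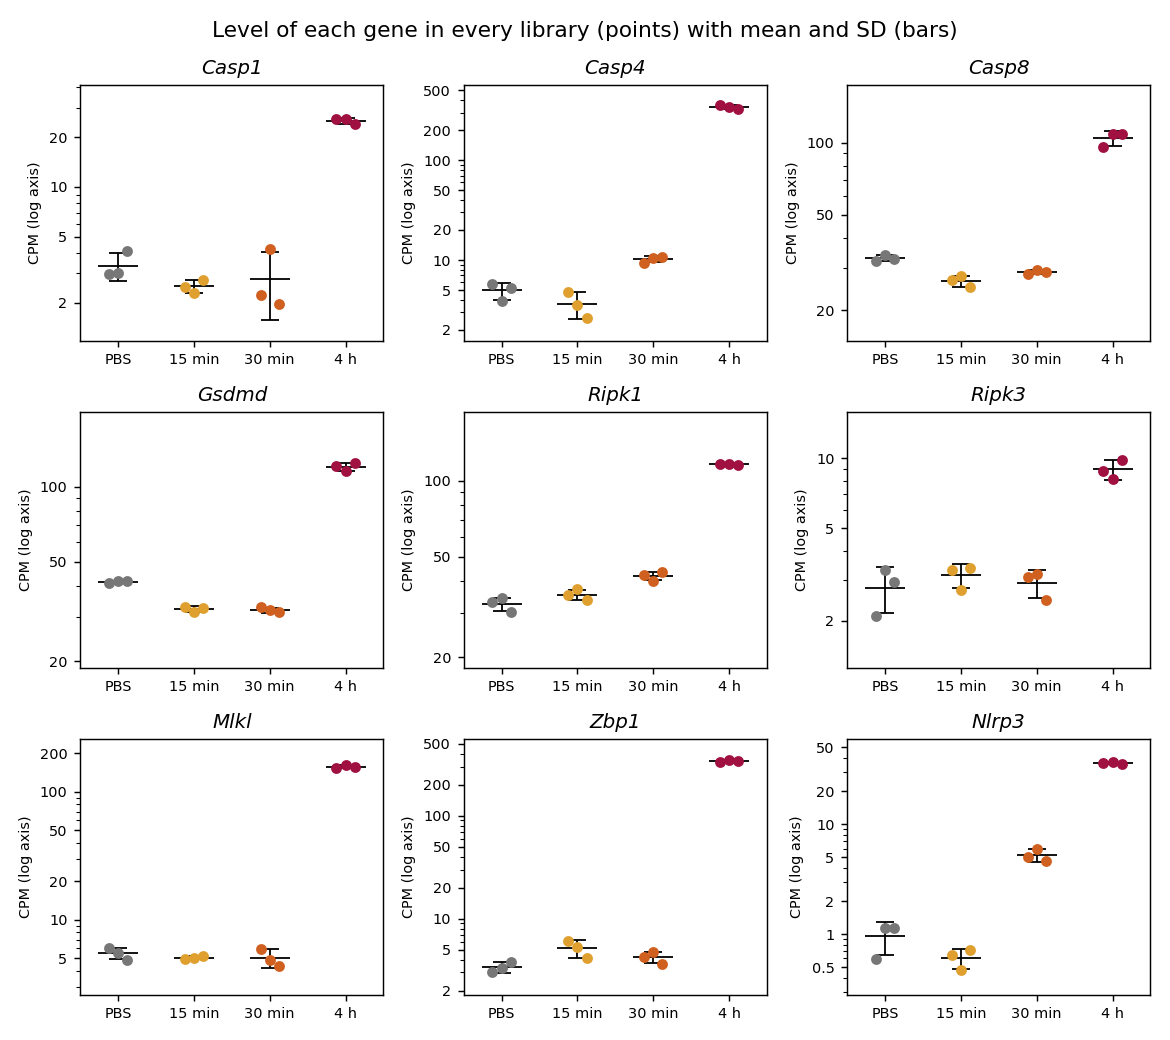
CPM of each of the 9 genes (log axes that differ between panels) in the 3 libraries of each group; points are libraries, and bars are the mean and SD. Nlrp3 (4.64 to 5.98 CPM) and Casp4 (9.35 to 10.8 CPM) are raised by 30 min, and every gene is above all earlier libraries at 4 h.

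At 4 h all 9 members rose against PBS and again against 30 min. Of all genes 32.7% were called against PBS (19% higher, 13.8% lower) and 28.6% against 30 min (16.9% higher, 11.8% lower). The libraries did not overlap for 9 of 9 members in either comparison, against 70.9% of all genes with PBS and 67.5% with 30 min. The median log2 fold change was 2.91 over the members and -0.01 over all genes tested. The sizes fell into a strongly raised group (Zbp1, Casp4, Nlrp3 and Mlkl, 28.5-fold to 101-fold), Casp1 at 7.51-fold, and a group raised 2.90-fold to 3.59-fold (Ripk1, Ripk3, Casp8 and Gsdmd).

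**Figure D3:**
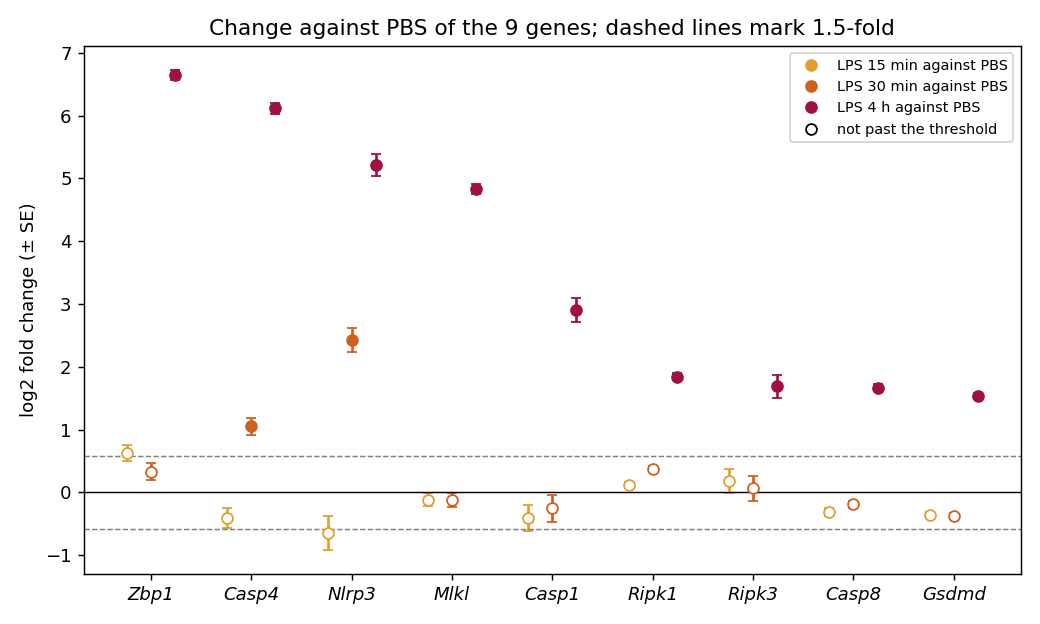
Log2 fold change of each gene against PBS at the 3 times (edgeR, bars are SE); open points did not pass the test against 1.5-fold, which the dashed lines mark. At 15 min every point is open, at 30 min Casp4 (1.05) and Nlrp3 (2.42) are filled, and at 4 h all are filled, from 1.53 for Gsdmd to 6.65 for Zbp1.

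Among the sensors, Zbp1 showed the largest change of the set. It stood at 3.38 ± 0.397 CPM in PBS and reached 335, 346 and 340 CPM at 4 h, with a log2 fold change of 6.65 ± 0.0772 (edgeR adjusted p = 2.21e-26). Nlrp3 measured 36.1, 37.0 and 35.1 CPM, a log2 fold change of 5.21 ± 0.176 (edgeR adjusted p = 3.51e-17). Nlrp3 was thus raised in steps, 8.40-fold from 15 to 30 min and 6.93-fold from 30 min to 4 h, whereas Zbp1 rose 80.0-fold between 30 min and 4 h.

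Among the caspases, Casp4 measured 355, 343 and 329 CPM at 4 h, a log2 fold change of 6.12 ± 0.0912 (edgeR adjusted p = 2.82e-24). Casp1 measured 25.9, 25.6 and 23.9 CPM, a log2 fold change of 2.91 ± 0.190 (edgeR adjusted p = 4.51e-11). Counted per length, Casp4 was at 313 and Casp1 at 16.8 TPM. Casp8, which both starts apoptosis and restrains necroptosis, measured 95.5, 109 and 109 CPM, a log2 fold change of 1.66 ± 0.0557 (edgeR adjusted p = 3.19e-15). Its 4 h libraries were far above the slightly low values of 15 and 30 min.

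Gsdmd, the substrate that caspase-1 and caspase-11 share, measured 121, 115 and 124 CPM at 4 h, a log2 fold change of 1.53 ± 0.0448 (edgeR adjusted p = 4.96e-16), the smallest rise of the 9. With library size alone in place of TMM factors the rise of Gsdmd was 0.83 (adjusted p = 4.74e-06) and that of Zbp1 5.95 on the log2 scale, and all 9 calls stood.

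Of the necroptosis genes, Mlkl went from 6.03, 5.56 and 4.88 CPM in PBS to 153, 161 and 157 CPM at 4 h, with a log2 fold change of 4.84 ± 0.0749 (edgeR adjusted p = 8.33e-24). Ripk1 measured 117, 117 and 116 CPM, a log2 fold change of 1.84 ± 0.0514 (edgeR adjusted p = 5.29e-17). Ripk3, the kinase that phosphorylates MLKL, measured 2.10, 3.30 and 2.94 CPM in PBS and 8.86, 8.18 and 9.90 CPM at 4 h, a log2 fold change of 1.69 ± 0.185 (edgeR adjusted p = 2.35e-06). The effector was thus raised 28.5-fold and its kinase 3.22-fold. Summed over all transcripts in TPM, Ripk3 overlapped between the groups, at 4.57, 4.46 and 3.68 in PBS and 4.44, 7.98 and 4.82 at 4 h.

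Markers of blood leukocytes and of other cell types moved with the 4 h libraries. Of 11 neutrophil genes 10 were tested and all 10 rose. Their sum went from 9.21 to 10.9 CPM in PBS, 7.05 to 8.71 at 15 min and 10.5 to 12.5 at 30 min to 259 to 261 CPM at 4 h, with Ly6g at 0 in all PBS and 15 min libraries. Of 6 monocyte genes 4 rose at 4 h, and the sum was 72.3 to 84.6 CPM in PBS and 200 to 209 CPM at 4 h. The 6 perivascular macrophage genes (3 rose) summed to 106 to 110 CPM and then 166 to 173 CPM. The 9 microglia genes (4 fell) summed to 178 to 185 and then 114 to 117 CPM. The 10 endothelial genes (6 fell, 2 rose) summed to 11757 to 12070 CPM in PBS and 8584 to 8638 CPM at 4 h. Mural (5688 to 5803 CPM), neuronal (239 to 248 CPM) and fibroblast sums (197 to 204 CPM) were also below every PBS library at 4 h. The oligodendrocyte sum (407 to 425 CPM) was above PBS, although 0 of 5 oligodendrocyte genes rose and 2 fell. Their log2 fold changes ran from -1.22 to 0.53, with a median of -0.57. Lymphocyte genes were at 7.19 to 7.99 and then 3.48 to 4.08 CPM, with 2 of 5 tested falling. Astrocyte genes, of which 2 of 6 rose and 0 fell, summed to 716 to 738 CPM in PBS and 1372 to 1430 CPM at 4 h. Several of the 9 genes are known to be expressed in neutrophils and macrophages as well as in endothelium, and the part of these cells in the result was not tested.

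The transcripts behind each gene were estimated by Salmon, whose division of reads between overlapping transcripts has an error that the files do not give. Ripk1-201 held 58.8% to 65.6% of Ripk1 TPM in PBS and 77.2% to 83.1% at 4 h, and Ripk1-203, also protein coding, went from 25.3% to 34.4% down to 10.8% to 12.8%. In level, Ripk1-201 went from 6.95 to 9.54 TPM in PBS to 24.1 to 24.7 TPM at 4 h. Ripk1-203 was at 3.90 to 4.04 TPM in PBS and 3.38 to 3.87 TPM at 4 h. TPM carries no TMM factor (means of 1.17 in PBS and 0.717 at 4 h), so both levels at 4 h are lower against PBS than in CPM. Whether Ripk1-203 changed on the TMM scale was not tested. Neither share overlapped between the groups, and 3 libraries against 3 cannot give an exact permutation p below 0.1.

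The leading transcripts of Zbp1 and Casp8 held shares that overlapped between PBS and 4 h. Zbp1-202 held 51.9% to 67.8% of Zbp1 TPM in PBS and 59.5% to 62.2% at 4 h. Casp8-202 held 53.6% to 72.2% and then 66.3% to 67.8%. Transcripts annotated as retained introns held 52.8% to 62.4% of Gsdmd TPM in PBS and 57.3% to 59.9% at 4 h, and 31.1% to 38.0% and then 23.8% to 27.7% of Casp4 TPM. The Casp4 shares did not overlap, but the PBS share leaned on few fragments. Casp4-205, 365 bases long, held 7.10% to 14.6% of Casp4 TPM in PBS on 1 to 3 estimated fragments per library. At 15 min the retained intron share of Casp4 ran from 4.03% to 48.9%. The TPM of Gsdmd therefore includes transcripts not annotated as coding. Gsdmd-201, a protein-coding form, was at 30.5 ± 1.58 TPM in PBS and 46.2 ± 1.97 TPM at 4 h, again without TMM factors.

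**Figure D4:**
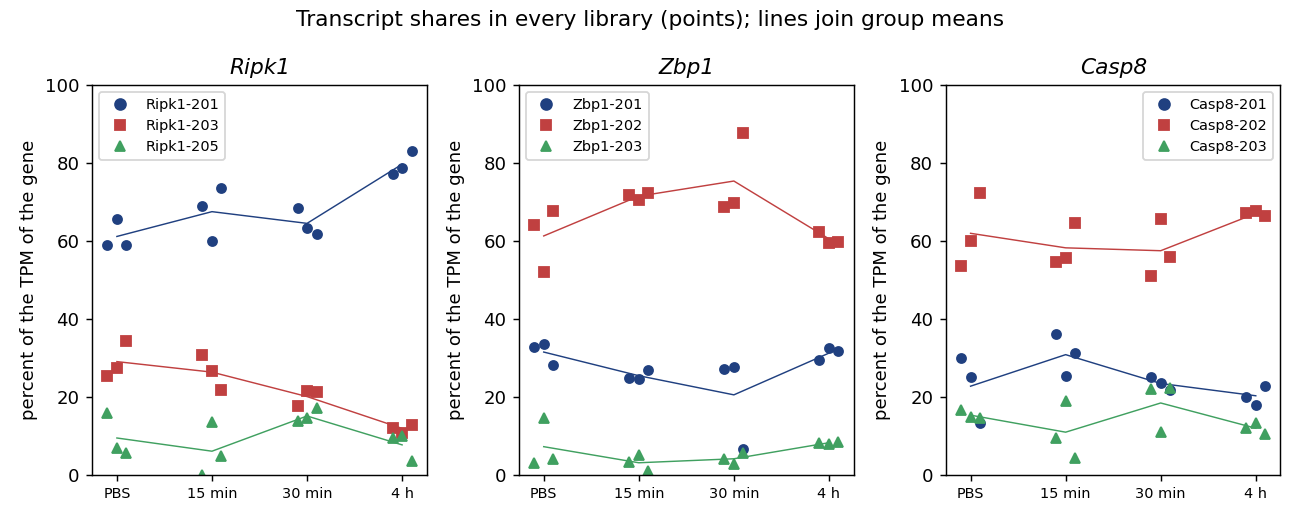
Share of the gene's TPM (percent) held by the named transcripts of Ripk1, Zbp1 and Casp8 in each library; points are libraries and lines join group means. The share of Ripk1-203 is 25.3% to 34.4% in PBS and 10.8% to 12.8% at 4 h, while the 4 h shares of Zbp1-202 and Casp8-202 lie within their PBS ranges.

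Around the 9 genes, 82 others of the same pathways were listed by role, also with earlier results of these data known, and 69 passed the filter. At 15 min 3 of the 69 rose and 0 fell, at 30 min 8 rose and 0 fell, and at 4 h 34 rose and 5 fell. Of all genes tested, 3.31%, 3.78% and 19% were higher at these times and 0.872%, 0.799% and 13.8% lower, and the counts of each list below stand against these shares. The 3 of 69 at 15 min were near that share. The median log2 fold change of these genes at 4 h was 0.75, beside -0.01 over all genes tested.

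The cytokines that inflammasome caspases process differed in the size of their change. Il1b, which encodes the IL-1β precursor, was raised at every time: it measured 0.150, 0.607 and 0.648 CPM in PBS, 2.78, 2.46 and 2.60 CPM at 15 min, 20.1, 21.3 and 21.4 CPM at 30 min and 129, 137 and 140 CPM at 4 h. No library overlapped with another group, and the log2 fold changes against PBS were 2.46 ± 0.234, 5.45 ± 0.154 and 8.15 ± 0.124. Il18 measured 6.78, 6.71 and 7.10 CPM in PBS and 8.24, 9.32 and 10.9 CPM at 4 h, and its log2 fold change of 0.47 ± 0.138 did not pass (edgeR adjusted p = 0.939). Of 7 cytokine genes 4 rose at 4 h, among them Il1a (log2 fold change 7.35 ± 0.237), released by lysed cells, and Il1rn, the IL-1 receptor antagonist. Il1rn had 3 counts over the PBS libraries, 25 over the 30 min libraries and 5720 over the 4 h libraries, or 0.0367, 0.363 and 134 CPM. At 30 min 3 of the 7 had risen, Il1b, Il1a (log2 fold change 3.57 ± 0.299) and Il1rn.

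Of 13 inflammasome genes tested, 0 were called at 15 and 30 min, and 6 rose and 2 fell at 4 h, the falls near the 13.8% of all genes. Pycard, the adaptor ASC that links NLRP3 to caspase-1, measured 5.24, 5.80 and 6.22 CPM in PBS and 13.9, 13.7 and 15.2 CPM at 4 h, a log2 fold change of 1.31 ± 0.144 (edgeR adjusted p = 2.08e-05). Txnip, a binding partner of NLRP3, rose by 2.62 ± 0.0248 on the log2 scale. Mefv, the pyrin sensor expressed mainly in neutrophils and monocytes, rose from 0.0599 to 5.95 CPM, or from 5 to 253 counts over the group. P2rx7, the ATP-gated channel upstream of NLRP3, fell by 1.38 on the log2 scale (SE 0.120), and Nlrp1b fell from 37 counts over the PBS libraries to 4 over the 4 h libraries (edgeR adjusted p = 0.0472).

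Among the other caspases, Casp12 rose and Casp9 and Casp6 fell at 4 h. Casp12, the next gene after Casp4 on chromosome 9, measured 27.4, 27.4 and 27.9 CPM in PBS, 19.3, 18.1 and 18.5 CPM at 15 min, 17.5, 18.3 and 19.5 CPM at 30 min and 60.7, 63.9 and 60.1 CPM at 4 h. Its log2 fold changes of -0.56 ± 0.0596 and -0.58 ± 0.0607 at the early times did not pass, and that at 4 h was 1.16 ± 0.0565 (edgeR adjusted p = 5.39e-10). The 3 neighbours Casp1, Casp4 and Casp12 were thus all raised at 4 h, by 2.91, 6.12 and 1.16 on the log2 scale, and only Casp4 had risen at 30 min. Casp9, the initiator of the mitochondrial route of apoptosis, fell by 1.66 on the log2 scale (SE 0.0938), and Casp6 fell by 1.32 (SE 0.0988). Casp14 was at 0 in all 12 libraries.

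Gsdmd was almost alone among the gasdermins. Of the other gasdermins and Ninj1, 10 genes, only Gsdme and Ninj1 passed the filter, and Gsdma2, Gsdma3, Gsdmc and Gsdmc2 had no count in any library. Ninj1, which ruptures the membrane after the pore has formed, rose from 54.2 to 143 CPM at 4 h, a log2 fold change of 1.40 ± 0.0550 (edgeR adjusted p = 5.35e-13).

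Of 24 genes of death receptors and the complexes around RIPK1, 2 rose at 15 min, 4 at 30 min and 13 at 4 h, when 1 fell, beside 3.31%, 3.78% and 19% of all genes higher and 13.8% lower at 4 h. Tnfaip3, the A20 enzyme that restrains RIPK1 and NF-kB signalling, rose at each time, with log2 fold changes of 1.44 ± 0.0462, 5.11 ± 0.0401 and 6.23 ± 0.0406. Fas, a death receptor, rose by 0.80 ± 0.0386 on the log2 scale at 15 min. At 30 min Tnfrsf10b, the mouse TRAIL receptor, rose by 1.49 ± 0.0796 and Birc3, a ubiquitin ligase of RIPK1, by 1.24 ± 0.0599. At 4 h Birc3 was raised by 4.77 ± 0.0527 and Tlr3, the receptor of double-stranded RNA, by 3.87 ± 0.0418. Tradd, the adaptor of TNF receptor 1, fell by 1.27 on the log2 scale (SE 0.167).

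Of 11 genes of the ESCRT-III machinery and other restraints on membrane pores, 0 were called early and 2 rose at 4 h, near the 19% of all genes: Chmp4b, which repairs membranes, by 2.67 ± 0.0273 and Pdcd6ip by 0.75 ± 0.0332 in log2 units. Guanylate-binding proteins expose bacterial LPS to caspase-11. Each of the 6 genes of these proteins and of immunity-related GTPases rose at 4 h. The largest of these log2 fold changes were 5.99 ± 0.0564 for Gbp2, 5.86 ± 0.0472 for Gbp5 and 4.55 ± 0.0364 for Gbp3. Gbp5 had risen by 1.15 ± 0.0432 at 30 min, when the other 5 had not passed.

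**Figure D5:**
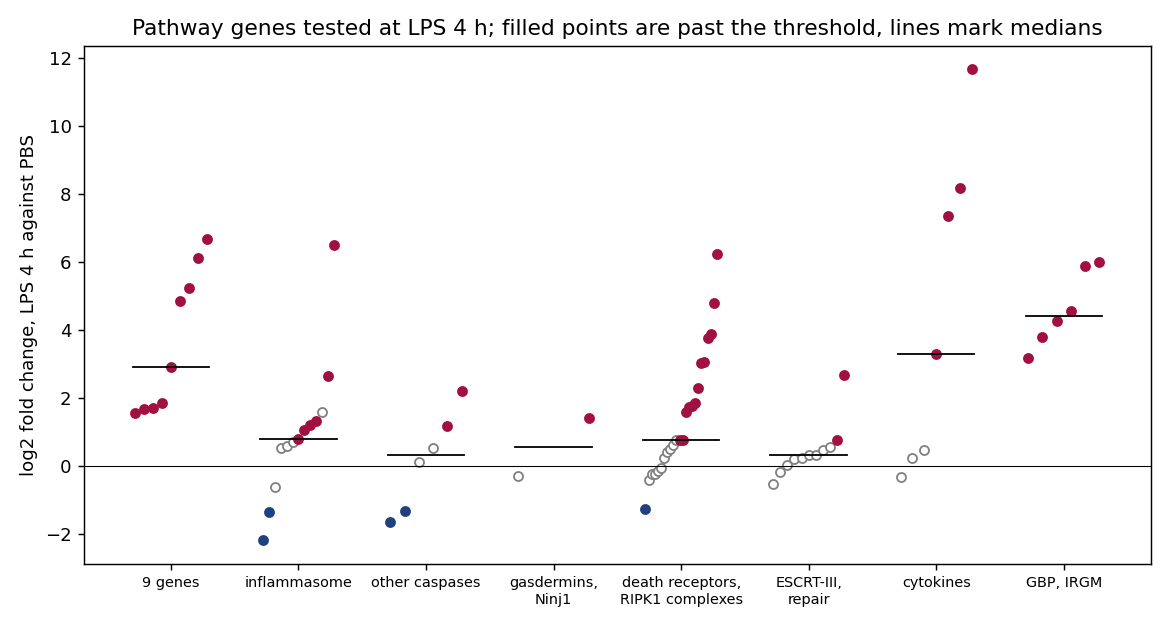
Log2 fold change at 4 h against PBS of every pathway gene tested, by list; filled points passed the test (red higher, blue lower), open grey points did not, and lines are list medians. The medians are 2.91 for the 9 genes, 3.29 for the cytokines and 4.40 for the GTPases, against 0.31 for the other caspases and 0.30 for the repair genes.

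Over the 12 libraries the levels of the 9 genes, as log2(CPM + 1), correlated with each other at Pearson r from 0.86 (Gsdmd with Nlrp3) to 0.99. The libraries form 4 groups, with 4 h apart from the rest, so any gene raised at 4 h correlates highly, and these values describe the shape only. Among 16296 genes that are no members and had a mean of at least 1 CPM, those nearest in shape to Zbp1 were Gbp3 and Irgm1 (both r = 0.999). Nearest to Casp4 were Mapk6 (r = 0.999) and Esyt1 (0.998), to Nlrp3 Eef1a1 and mt-Co1 (both 0.997), and to Mlkl Crim1 and Parp10 (both 0.999). Nearest to Gsdmd were Col4a1 and Ddx60 (both 0.999), to Casp8 Flt4 and Pros1 (both 0.998), and to Ripk1 Nfe2l2 (0.999) and Psma6 (0.998). Nearest to Casp1 were Cnksr1 (0.993) and Frat2 (0.992), and to Ripk3 5430416N02Rik (0.987) and 4931406P16Rik (0.984). Ripk3 had the lowest of these values.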

How the data were processed

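RNA of the 12 vessel libraries was amplified with SMART-Seq v4, fragmented with Nextera XT and sequenced in pairs on a NovaSeq. The authors quantified transcripts with Salmon 1.2.1, imported them with tximport and normalized genes with DESeq2, on GRCm38.p6. The deposited estimated counts are fragments per transcript, not normalized; the deposited TPM values are scaled for length and to a constant sum; the gene table of the authors holds a normalized signal (counts over size factors). Transcripts were joined to GENCODE M21 (139852 of 140948; the rest held 0.482% to 0.850% of fragments), summed per gene and rounded. The depth, 18.3 to 25.9 M fragments, bounds the precision of low genes.

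Genes passing filterByExpr (minimum count 10, total 15, share 0.7) were fitted over all 12 libraries in edgeR 4.0.16 (R 4.3.3; TMM, glmQLFit) and tested with glmTreat against 1.5-fold in 5 comparisons, each LPS time with PBS and successive LPS times. Each SE was derived from the log2 fold change and its quasi-likelihood F. The scripts were tested on simulated data. Alternatives were DESeq2 1.42.0, limma 3.58.1 on log2 of the gene table plus 1 or plus 10, 7 other settings (RLE factors, library size only, no filter, no fold limit, a transcript length offset, only the groups compared, a replicate block), and leaving out each library. Members and lists were chosen with earlier results of these data known. The genes named are all members; from each pathway list the 3 largest rises and 2 largest falls called against PBS; Il1b, Il18, Pycard and Casp12; and the 2 genes nearest to each member in shape, except 1 gene that is not reported here. P-values measure the spread between pools.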

Additional observations from a re-analysis of the deposited data

Results flagged for a closer look

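The LPS effect on several members differed between successive times, by a test of the difference itself (edgeR glmTreat, adjusted over all genes, with groups that shared no library). From 15 to 30 min the log2 fold change was 1.47 for Casp4 and 3.07 for Nlrp3, higher in 3 of 3 libraries each. From 30 min to 4 h it was 6.32 for Zbp1, 5.07 for Casp4, 4.95 for Mlkl, 3.16 for Casp1, 2.79 for Nlrp3, 1.91 for Gsdmd, 1.86 for Casp8, 1.63 for Ripk3 and 1.47 for Ripk1, again with every 4 h library above every 30 min library. The largest adjusted p among the latter was 6.8e-06, for Ripk3.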

How the results depend on the processing

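The 9 calls at 4 h against PBS stood under all 22 alternatives, as did Nlrp3 at 30 min. The count of members called at 30 min, 2, was 1 in DESeq2, with library size only, with the length offset, with limma plus 1 and plus 10 and without PBS replicate 2, each time by loss of Casp4, and 1 to 2 over the fits that left out a library. Without a fold limit it was 5, and 4 at 15 min in place of 0. Of the pathway genes, 28 were then called at 15 min in place of 3, 40 at 30 min in place of 8, 30 between 15 and 30 min in place of 7 and 61 between 30 min and 4 h in place of 40. Ripk3 from 30 min to 4 h was not called with limma plus 10 (1.08, adjusted p = 0.0601). Counts over all genes of 800, 877 and 6271 for the times against PBS became 7395, 7066 and 13125 without a fold limit, 406 and 531 at the early times with limma plus 1, and 385 and 497 with limma plus 10. With library size only 10463 genes were called at 4 h, of which 1908 rose, in place of 3633 of 6271. The order of levels in TPM turned for Casp4 and Zbp1 and for Gsdmd and Mlkl at 4 h with protein-coding transcripts only, an alternative added after seeing the data. The cause was not tested.

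Signs turned only in values that were not called: Mlkl at 15 min to 0.035 (length offset), 0.0117 and 0.0114 (limma plus 1 and plus 10), Ripk3 at 30 min to -0.10 with library size only, and, from 15 to 30 min, Casp8 to -0.018 (library size only) and Mlkl to 0.0063 (DESeq2), 0.0064 (RLE factors) and 0.00019 (only the groups compared). Leaving out single libraries moved Ripk3 at 30 min from -0.10 to 0.21 and, from 15 to 30 min, Casp1 from -0.27 to 0.36, Gsdmd from -0.033 to 0.0024 and Mlkl from -0.14 to 0.10; Casp1 was negative only without LPS 30 min replicate 2.

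Libraries share replicate numbers, and the main fit did not pair them. The deviations of same-numbered libraries from their group means correlated at 0.0516 at most in 18 comparisons. Taken over all genes tested, this correlation cannot show a pairing that moved only some genes. With the replicate number as a block 0, 2 and 9 members were called at the successive times, as without it.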
